A study of Mus musculus with 12 samples.

Results

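Gluconeogenesis makes glucose from lactate, amino acids, glycerol and propionate, and it runs mainly in liver and kidney, with a known capacity in the small intestine that rises with fasting and protein-rich diets. Most of its steps are glycolytic reactions run backwards, and a few enzymes bypass the irreversible glycolytic steps. Pyruvate carboxylase and the phosphoenolpyruvate (PEP) carboxykinases turn pyruvate into PEP, fructose-1,6-bisphosphatase removes a phosphate further up the path, and glucose-6-phosphatase, fed by a transporter in the membrane of the endoplasmic reticulum, releases free glucose.

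The 6 genes described here encode that bypass and its transporter: G6pc (catalytic subunit of glucose-6-phosphatase), Slc37a4 (the glucose-6-phosphate transporter), Fbp1 (fructose-1,6-bisphosphatase), Pck1 (cytosolic PEP carboxykinase), Pck2 (its mitochondrial counterpart) and Pcx (pyruvate carboxylase). They were chosen by name from the 15855 genes of the table, with earlier results of these data known. All 6 passed the filter on low counts, which kept 14462 genes in total. RNA was sequenced from small intestinal epithelial cells sorted for EpCAM, an epithelial surface protein, of C57BL6/J mice. The study's methods give their age in weeks, which is that of young adults, and state that animals were male unless stated otherwise. Cells were taken 24 h after sham surgery (n = 7) or after permanent middle cerebral artery occlusion (pMCAO, n = 5), an experimental stroke in which a main brain artery stays blocked. Each sample is labelled as a biological replicate, and no sample was dropped from the main fit. The pMCAO group is described in the study as larger than the group analysed here, and no further library was used. The comparison asks how these genes of the gut epithelium differ 24 h after stroke.

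Total counts over the table ranged from 7418730 to 31925579 per sample, and 3 counts corresponded to between 0.094 and 0.404 CPM (counts scaled to the size of the library). Transcripts of the mitochondrial genome took 25.8 to 62% of counts in sham samples and 24.2 to 46.3% in pMCAO samples. The first principal component (40.5% of the variance) set the libraries numbered 58 to 61 (sham replicates 1 to 3 and pMCAO replicate 1) apart from the rest, which it did not divide further. The fit of each of the 6 genes is also given with 4 sets of consecutive library numbers as a covariate. The sets are libraries 58 to 61, 62 to 65, 66 to 68, and 72. Fold changes and counts of other genes are from the group alone unless the sets are named. Epithelial markers were present in every sample, with a summed level of 6 markers between 5160 and 12100 CPM. Of 5 hepatocyte markers, from a cell type rich in gluconeogenic transcripts, 3 were measured, and their sum was 0 to 15.2 CPM in sham and 0.256 to 15.3 CPM in pMCAO samples. Among them Alb was listed at 0 in 5 samples and was 0.445 ± 0.739 CPM in sham (SD, n = 7) and 1.47 ± 0.873 CPM in pMCAO (SD, n = 5). Ttr, the most abundant of the 3, was 5.91 ± 5.25 CPM in sham and 5.95 ± 3.56 CPM in pMCAO. Serpina1a was 0.711 ± 0.778 CPM in sham and 1.61 ± 1.44 CPM in pMCAO.

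The promoters of 4 genes are printed first, those of G6pc, Fbp1 and Pck1, and of Pck2 as the paralogue of Pck1. No expression value below was computed from these promoters. Each is the RefSeq window of 300 bases from 250 before to 50 after the annotated start, in build GRCm38.p6, 5′ to 3′ on the gene's strand, with capitals marking exact matches to the motifs named below. The G6pc window is chr11:101367466-101367765 (+), the Fbp1 window chr13:62888233-62888532 (-), the Pck1 window chr2:173152823-173153122 (+) and the Pck2 window chr14:55540016-55540315 (+).
G6pc: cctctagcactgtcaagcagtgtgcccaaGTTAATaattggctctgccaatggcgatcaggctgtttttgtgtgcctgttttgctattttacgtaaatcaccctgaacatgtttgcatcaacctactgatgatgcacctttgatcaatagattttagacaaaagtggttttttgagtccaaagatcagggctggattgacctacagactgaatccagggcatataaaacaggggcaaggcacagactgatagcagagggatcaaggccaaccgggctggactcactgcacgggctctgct
Fbp1: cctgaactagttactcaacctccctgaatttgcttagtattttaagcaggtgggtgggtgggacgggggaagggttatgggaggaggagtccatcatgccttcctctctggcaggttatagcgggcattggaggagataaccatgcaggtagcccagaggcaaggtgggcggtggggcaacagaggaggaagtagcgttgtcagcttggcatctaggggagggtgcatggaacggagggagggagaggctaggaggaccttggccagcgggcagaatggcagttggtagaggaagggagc
Pck1: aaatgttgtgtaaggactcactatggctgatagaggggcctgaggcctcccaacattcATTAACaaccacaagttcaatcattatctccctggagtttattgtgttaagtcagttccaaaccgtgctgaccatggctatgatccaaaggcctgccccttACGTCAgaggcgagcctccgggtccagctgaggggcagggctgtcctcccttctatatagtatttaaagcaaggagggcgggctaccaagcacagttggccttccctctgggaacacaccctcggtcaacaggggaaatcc
Pck2: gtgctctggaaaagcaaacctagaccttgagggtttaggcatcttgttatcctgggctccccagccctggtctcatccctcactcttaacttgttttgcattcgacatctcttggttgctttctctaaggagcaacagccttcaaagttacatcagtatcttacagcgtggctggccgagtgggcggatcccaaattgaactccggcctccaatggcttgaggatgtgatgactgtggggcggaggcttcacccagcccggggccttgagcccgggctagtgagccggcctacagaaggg

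Motifs of regulators known for gluconeogenic genes were searched on both strands. The G6pc window held GTTAAT, a short HNF1 motif, at position -221 from the start. The Pck1 window held the same letters on the other strand at -192, and ACGTCA, the core of the cAMP response element, at -91. The Fbp1 and Pck2 windows held no match, which says only that these letters are not in these 300 bases. Slc37a4 has 3 annotated starts, and 2 of its windows overlap and held the same single ACGTCA on the other strand, at -61 from one start and -214 from the next. Of Pcx, 1 of 2 windows held CACGTG, an E box, at -248. Over 32851 promoter windows, GTTAAT occurred in 7.1%, ACGTCA in 7.51% and CACGTG in 7.15%. The other motifs searched were absent from all windows of the 6 genes and occurred in 1.79% (TGACGTCA, the full cAMP response element, which contains ACGTCA), 3.65% (GTAAACA, FOXO), 0.475% (CAAAGTCCA, HNF4) and 19% (AGAACA, a short glucocorticoid receptor motif) of all windows. A match is a description of the sequence and not of binding.

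Transcripts of G6pc, Slc37a4, Fbp1 and Pck1 were more abundant in pMCAO than in sham samples, by ratios of mean CPM of 4.07, 2.6, 4.58 and 2.53, while Pck2 and Pcx had ratios of 0.85 and 0.758. None of the 6 was called differentially expressed by limma-voom on the group alone, the main test, for which the adjusted p (Benjamini-Hochberg) had to be no more than 0.05 and the log2 fold change 1 or more in size. That test called 0 of 14462 genes (0.0%), although 1219 genes had an unadjusted p under 0.05. edgeR's quasi-likelihood test also called 0 genes, with 930 at an unadjusted p under 0.05. With the library sets as a covariate limma-voom called 47 genes (0.325%), 20 higher and 27 lower, and 2 of them, Pck1 and Fbp1, are among the 6. Both also stand on the study's own list of changed genes from this experiment, so their direction is not independent evidence. The boundaries of the sets had been matched to the authors' fold changes in an earlier analysis of these data, so calls made with the sets are not independent of the study's own fit.

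Counting without the adjustment, 4 of the 6 genes were higher in pMCAO at an unadjusted p under 0.05, against 4.66% of all genes tested. The same 4 genes (G6pc, Slc37a4, Fbp1 and Pck1) had a higher mean log2 CPM in pMCAO within each of the 3 library sets with samples of both groups, as did 17.2% of all genes. DESeq2 on the group alone, an alternative, called all 4, where it called 68 of the 8572 genes with an adjusted p (0.793%). Because the 6 genes were chosen with earlier results of these data known, these shares are a description and not a test of the set. In bulk RNA from sorted cells, more cells of a type and more RNA per cell cannot be told apart.

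**Figure D1:**
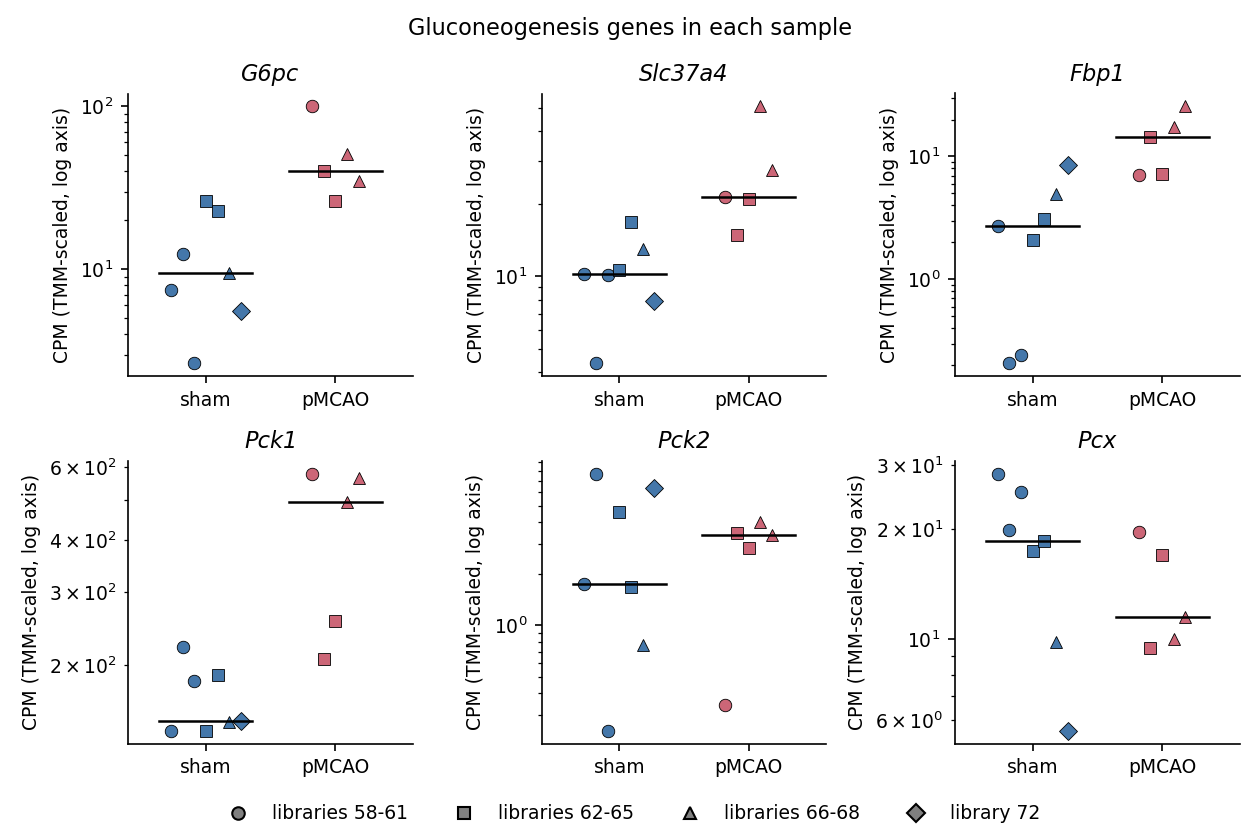
TMM-scaled CPM (log axis) of each gene in the 7 sham (blue) and 5 pMCAO (red) samples, with the median as a bar and the library set as the symbol. All 5 pMCAO samples sit above all sham samples for G6pc alone, by a narrow margin (26.3 against 26.2 CPM), and the groups overlap most for Pck2 and Pcx.

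G6pc (ENSMUSG00000078650, chr11:101367561-101377903, plus strand, GRCm38) encodes the enzyme that frees glucose from glucose-6-phosphate. Its level in sham samples ran from 2.65 through a median of 9.53 to 26.2 CPM. In pMCAO replicates 1 to 5 it was 99.9, 39.9, 26.3, 51.3 and 34.6 CPM. Every pMCAO sample was above every sham sample, which was so for 45 of the genes tested (0.311%), but the lowest pMCAO and highest sham sample differed by little and both belong to libraries 62 to 65. The log2 fold change was 2.08 (SE 0.42, 95% interval 1.19 to 2.97, limma-voom adjusted p = 0.11). With the library sets it was 1.75 (SE 0.41, adjusted p = 0.0674), and the exact two-sided permutation test of mean log2 CPM gave p = 0.00253 over all 12 samples and 0.0139, the smallest possible, within the library sets. Within the sets the difference was 3.97, 0.40 and 2.13 log2 CPM, so the sets did not show it to a like extent. Without pMCAO replicate 1, the sample at 99.9 CPM, the fold change with the sets was 1.18 (adjusted p = 0.212). The gene passed the call rule with the sets when sham replicate 4 (adjusted p = 0.0382), sham replicate 5 (0.0344) or pMCAO replicate 3 (0.0222) was left out.

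Slc37a4 (ENSMUSG00000032114, chr9:44396852-44402968, plus strand) encodes the transporter that carries glucose-6-phosphate to that enzyme. Sham samples held 4.35 to 16.8 CPM, with a median of 10.2. In pMCAO replicates 1 to 5 the level was 21.4, 14.9, 21, 50.8 and 27.6 CPM. Of the pMCAO samples, 4 lay above all sham samples, and replicate 2 fell below the highest sham sample. The log2 fold change was 1.13 (SE 0.32, 95% interval 0.44 to 1.81, limma-voom adjusted p = 0.338), and 1.00 (SE 0.28, adjusted p = 0.148) with the library sets. The exact permutation p was 0.00379 over all samples and 0.0556 within sets, with differences of 1.47, 0.40 and 1.52 log2 CPM in the 3 sets. Slc37a4 passed the call rule neither on the group alone nor with the sets, and leaving out sham replicate 6 brought the value with the sets down to 0.63.

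Fbp1 (ENSMUSG00000069805, chr13:62864753-62888282, minus strand) encodes the enzyme that turns fructose-1,6-bisphosphate into fructose-6-phosphate. It was the least covered of the 4 genes: sham samples held between 1 and 193 counts, or 0.207 to 8.60 CPM with a median of 2.71, and pMCAO samples 83 to 678 counts. In pMCAO replicates 1 to 5 its level was 7.09, 14.4, 7.26, 17.4 and 25.6 CPM. Of these, 3 lay above every sham sample and 2 lay below sham replicate 7, the only sample of its library set. Sham replicates 2 and 3 held 1 count each, below the 3-count floor, and both belong to the set of libraries 58 to 61, where sham samples averaged -0.58 log2 CPM against 2.07 in the later sets. The log2 fold change was 2.10 (SE 0.62, 95% interval 0.77 to 3.42, limma-voom adjusted p = 0.35).

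With the library sets as a covariate Fbp1 rose by 2.16 on the log2 scale (SE 0.42, 95% interval 1.27 to 3.05, limma-voom adjusted p = 0.0337). The differences within the sets were 3.43, 1.95 and 2.07 log2 CPM, and the exact permutation p was 0.0114 over all samples and 0.0139 within sets. The size hardly moved with any single library, from 2.00 to 2.32, but the call did not survive the loss of 8 of the 12 libraries. The adjusted p with the sets became 0.0591, 0.0504, 0.0562, 0.0505 and 0.27 without sham replicates 1, 2, 3, 5 and 6. It became 0.0924, 0.0512 and 0.117 without pMCAO replicates 1, 4 and 5.

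Pck1 (ENSMUSG00000027513, chr2:173153048-173159273, plus strand) encodes the cytosolic enzyme that makes PEP from oxaloacetate, a main control point of gluconeogenesis. Sham samples were close to each other, from 139 to 221 CPM with a median of 147. In pMCAO replicates 1 to 5 the level was 579, 207, 256, 495 and 566 CPM. Replicates 1, 4 and 5 formed a high group, and replicates 2 and 3, both from libraries 62 to 65, lay lower, replicate 2 below the highest sham sample and replicate 3 just above it. The log2 fold change was 1.28 (SE 0.26, 95% interval 0.73 to 1.82, limma-voom adjusted p = 0.11).

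With the library sets Pck1 rose by 1.28 (SE 0.22, 95% interval 0.82 to 1.73, limma-voom adjusted p = 0.0152). Within the sets the differences were 1.70, 0.51 and 1.86 log2 CPM, and the exact permutation p was 0.00253 over all samples and 0.0139 within sets. The call with the sets was lost without sham replicate 6 (1.02, adjusted p = 0.156) and without pMCAO replicate 1 (1.09, adjusted p = 0.123), and held without any other single library. Scaling by library totals alone, with no TMM factors, moved the median of all genes from 0.06 to 0.35 on the log2 scale and gave Pck1 a fold change of 1.51 (adjusted p = 0.0365) on the group alone.

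Pck2 (ENSMUSG00000040618, chr14:55540266-55551242, plus strand), the mitochondrial PEP carboxykinase, was sparse, with 1 to 87 counts in sham samples and 4 to 147 in pMCAO samples. Sham samples ran from 0.241 to 7.67 CPM with a median of 1.75, and pMCAO replicates 1 to 5 held 0.342, 3.44, 2.84, 4.00 and 3.36 CPM. The groups overlapped throughout. The log2 fold change was 0.59 (SE 0.65, 95% interval -0.79 to 1.97, limma-voom adjusted p = 0.818) and 0.74 (SE 0.58, adjusted p = 0.634) with the sets, and its sign was negative by edgeR (-0.22) and DESeq2 (-0.24). The exact permutation p was 0.926, and the difference within the sets ran from -1.94 to 2.11 log2 CPM, so at this depth no direction could be given. An antisense gene, Gm10876, overlaps 53 exonic bases of Pck2 (0.679%), and 1.64% of its 50-base words occur in other transcripts, while the other 5 genes shared no exonic base or 50-base word.

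Pcx (ENSMUSG00000024892, chr19:4510472-4621752, plus strand) encodes the mitochondrial enzyme that makes oxaloacetate from pyruvate, which also refills the citric acid cycle. Sham samples held 5.61 to 28.4 CPM with a median of 18.6, and pMCAO replicates 1 to 5 held 19.7, 9.49, 17.0, 10 and 11.5 CPM. The sham samples of libraries 58 to 61 averaged 4.61 log2 CPM and the later ones 3.54, a gap larger than that between the groups. The log2 fold change was -0.15 (SE 0.35, 95% interval -0.90 to 0.60, limma-voom adjusted p = 0.926) and -0.27 (SE 0.23, 95% interval -0.77 to 0.22, adjusted p = 0.665) with the sets. The interval with the sets did not reach the fold threshold of 1 in either direction.

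**Figure D2:**
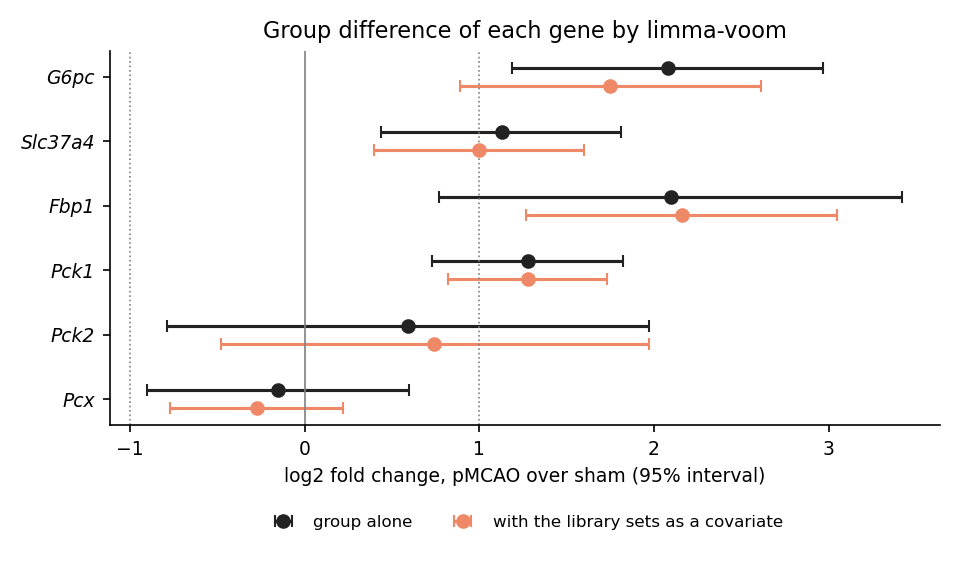
Log2 fold change of pMCAO over sham with its 95% interval for each gene, by limma-voom on the group alone (black) and with the library sets as a covariate (orange). Dotted lines mark the fold threshold of 1, and the intervals of Pck2 and Pcx cross 0 in both fits.

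**Figure D3:**
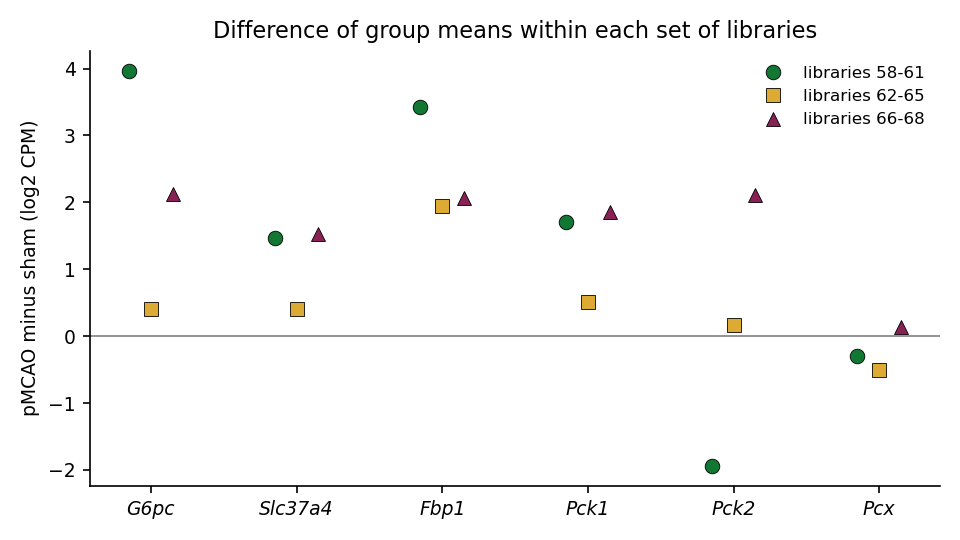
Difference of mean log2 CPM, pMCAO minus sham, within each of the 3 library sets that hold both groups. G6pc, Slc37a4, Fbp1 and Pck1 are above 0 in all sets, with the smallest difference in libraries 62 to 65, and Pck2 and Pcx lie on both sides of 0.

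Levels of different genes were compared per kilobase of exon (RPKM, from the GENCODE M21 annotation). Pck1 had the highest level, 48.5 ± 9.29 RPKM in sham (SD, n = 7) and 123 ± 51.4 in pMCAO (SD, n = 5), and its lowest sample was above the highest sample of every other gene within each group. In sham samples G6pc (5.13 ± 3.68), Pcx (3.76 ± 1.69), Slc37a4 (3.65 ± 1.37) and Fbp1 (1.84 ± 1.72 RPKM) followed with overlapping ranges. In pMCAO samples the order was G6pc (20.9 ± 12.1), Slc37a4 (9.5 ± 4.89), Fbp1 (8.43 ± 4.54) and Pcx (2.85 ± 0.956 RPKM), where the ranges of G6pc, Slc37a4 and Fbp1 overlapped and that of Pcx (2.00 to 4.13) lay below all of them. Pck2 had the lowest mean in both groups, at 0.421 ± 0.373 in sham and 0.358 ± 0.183 RPKM in pMCAO, over an annotated exon length of 7806 bases. Its sham range (0.0309 to 0.983 RPKM) overlapped that of Fbp1 (0.122 to 5.05 RPKM). Before division by length, the sham means were 3.29 CPM for Pck2 and 3.13 CPM for Fbp1, so their order in sham depends on that length.

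Enterocyte content was set beside these values because the path is active in villus enterocytes. The summed level of 8 villus enterocyte markers was 14100 to 24100 CPM in sham and 16500 to 51100 CPM in pMCAO samples, and the highest value belonged to pMCAO replicate 1. Of these markers 4 of 8 were higher at an unadjusted p under 0.05 on the group alone. Sis, the brush border sucrase-isomaltase, had a log2 fold change of 1.14 (limma-voom adjusted p = 0.322) on the group alone. With the library sets its fold change was 0.74 (adjusted p = 0.0337), below the fold threshold. Taken relative to that sum, the difference in mean log2 CPM was 1.93 for G6pc (exact permutation p = 0.00631), 1.06 for Slc37a4 (p = 0.029), 2.46 for Fbp1 (p = 0.0341) and 0.96 for Pck1 (p = 0.00126), and for Pck2 and Pcx it was -0.23 (p = 0.828) and -0.58 (p = 0.14). The 5 markers of proximal small intestine summed to 418 to 811 CPM in sham and 556 to 1060 CPM in pMCAO samples, most of it Lct (562 ± 129 CPM in sham, SD, n = 7, and 757 ± 221 in pMCAO, SD, n = 5). The members of that list went both ways, with log2 fold changes of 0.45 for Lct, -0.57 for Slc46a1 and -3.16 for Cybrd1 (limma-voom adjusted p = 0.357), which was at 0 in 2 samples. The 6 markers of distal small intestine summed to 111 to 297 CPM in sham and 146 to 289 CPM in pMCAO samples, with 2 of the 5 tested higher and 1 lower, Osr2 at -0.98 (adjusted p = 0.306). The 7 goblet cell markers summed to 4130 to 49700 CPM (median 20600) in sham and 7300 to 55200 CPM (median 31600) in pMCAO samples, with differences of 0.36, 0.58 and 0.44 on the log2 scale within the 3 sets. At an unadjusted p under 0.05, 0 of the 7 were higher on the group alone and 4 with the sets (limma-voom). The part of the proximal, distal and goblet markers in the values of the 6 genes was not tested.

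G6pc, Fbp1 and Pck1 were also set against the glycolytic enzymes of the step that each serves to bypass. The measure was a ratio of counts in the same sample, with 0.5 added to each count and no scaling between libraries. The log2 ratio of G6pc to the summed hexokinases was -3.38 ± 1.45 in sham (SD, n = 7) and -1.09 ± 1.24 in pMCAO samples (SD, n = 5). That of Fbp1 to the phosphofructokinases was -6.52 ± 2.04 and -3.64 ± 0.74. That of Pck1 to the pyruvate kinases was -0.31 ± 0.28 and 0.51 ± 0.40, so Pck1 counts were below pyruvate kinase counts in 6 of 7 sham samples and in no pMCAO sample, though nearly equal to them in pMCAO replicate 2 (8868 against 8853). In each of these ratios 3 of 5 pMCAO samples were above all sham samples. The ratio of Pck1 to Pck2 was 6.27 ± 1.65 and 7.46 ± 1.82, with 1 pMCAO sample above all sham samples. Within the 3 sets the log2 ratio of G6pc to the hexokinases differed by 5.24, 0.18 and 1.78 (pMCAO minus sham). The differences were 3.79, 1.97 and 2.24 for Fbp1 to the phosphofructokinases and 1.06, 0.48 and 1.15 for Pck1 to the pyruvate kinases. For Pck1 to Pck2 they were 3.86, 0.35 and -0.38. The Fbp1 ratios of sham replicates 2 and 3, -8.85 and -9.47, rest on 1 Fbp1 count each. Fbp2, a second fructose-1,6-bisphosphatase gene, is not part of the ratio. Its level was 45.5 ± 21.6 CPM in sham (SD, n = 7) and 77.1 ± 13.0 CPM in pMCAO (SD, n = 5). The mean level of Fbp1 was 3.13 and 14.3 CPM, so the ratio does not describe all transcripts for this step. No test was made of the ratios.

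**Figure D4:**
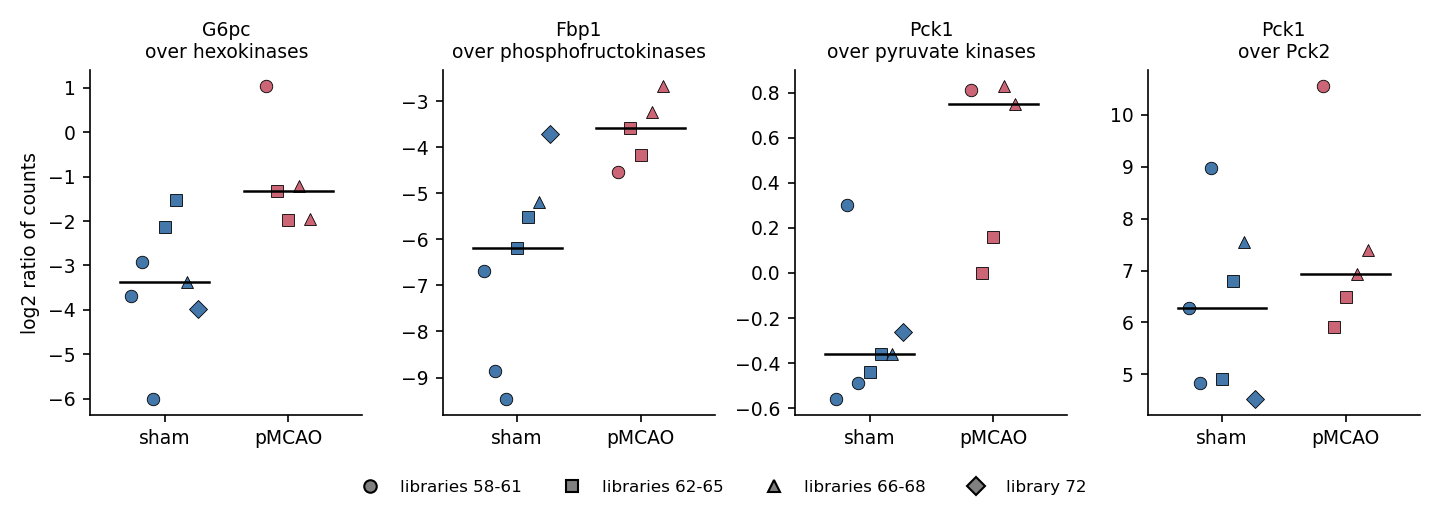
Log2 ratio of counts in each sample, with medians as bars and library sets as symbols. G6pc, Fbp1 and Pck1 are set against the glycolytic enzymes of the step each serves to bypass, and Pck1 against Pck2. The ratios to glycolytic enzymes are higher in pMCAO samples on average with some overlap, and those of Pck1 to Pck2 overlap more.

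The rest of the pathway was examined in 9 lists of related genes, 110 of whose 116 genes were measured. No listed gene was called in either fit. At an unadjusted p under 0.05 on the group alone 4.66% of all genes tested were higher and 3.77% lower, and with the sets 6.58% and 6.17%. The median log2 fold change of all genes tested was 0.06 on the group alone. The 4 measured paralogues of the 6 genes had a median log2 fold change of 0.36, 1 higher and 0 lower at an unadjusted p under 0.05. Fbp2, a muscle-type fructose-1,6-bisphosphatase, was at 0.79 (limma-voom adjusted p = 0.477) and G6pc3, the widely expressed glucose-6-phosphatase, at 0.75 (adjusted p = 0.736). Slc37a1, a relative of the glucose-6-phosphate transporter, was at -0.55 (adjusted p = 0.628), and with the sets the list had 1 higher and 1 lower. Of the 11 enzymes shared with glycolysis or the malate and aspartate exchange, 3 were higher and 0 lower at an unadjusted p under 0.05 (median 0.30). The 3 were Gpi1 (0.55), Got1 (0.74) and Mdh1 (0.50). Gapdh was at -0.72 (limma-voom adjusted p = 0.595). With the sets 3 of the list were higher and 1 lower, Gapdh at -0.79 (adjusted p = 0.177).

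Among 17 genes that supply substrates, 3 were higher and 1 lower on the group alone (median 0.23). With the sets 1 was higher and 1 lower. Glud1, which releases the carbon skeleton of glutamate, had a value of 1.25 (limma-voom adjusted p = 0.318, and 0.0604 with the sets), Pcca, the propionate enzyme, 0.84, and Aqp7, a glycerol channel, -1.01. The 7 mitochondrial carriers had a median of 0.26, with the citrate carrier Slc25a1 at 0.44 (1 higher, 0 lower), Slc25a11 at 0.40 and Mpc1 at -0.81. Among the 3 glucose transporters the sodium-coupled Slc5a1 was at 0.92 (adjusted p = 0.338, and 0.0815 with the sets), Slc2a2, the basolateral exit route, at 0.86 and Slc2a1 at 0.19 (median 0.86, 1 higher and 0 lower).

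The 17 genes of the opposing glycolytic steps had a median of 0.15, with 1 higher and 2 lower on the group alone. With the sets 1 was higher and 3 were lower. Pfkfb3, which makes the fructose-2,6-bisphosphate that activates phosphofructokinase and inhibits fructose-1,6-bisphosphatase, was at 68.9 ± 32.9 CPM in sham (SD, n = 7) and 27.4 ± 18.4 CPM in pMCAO (SD, n = 5), a log2 fold change of -1.34 (limma-voom adjusted p = 0.428, and 0.145 with the sets). The liver-type phosphofructokinase Pfkl was at -0.62, and the pyruvate kinase Pkm at 0.45. None of 30 transcriptional regulators had an unadjusted p under 0.05 on the group alone (limma-voom, median 0.18, against 3 higher and 2 lower with the sets), and the 3 with the smallest p were Foxo3 (-0.53), Ppara (0.58) and Creb1 (-0.30).

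Genes known to respond to glucocorticoids and to fasting are often raised along with Pck1 and G6pc in other tissues. Of 11 glucocorticoid response genes 2 were higher and 0 lower on the group alone (median 0.52). With the sets 3 were higher and 0 lower. Zbtb16 was at 0 in 4 samples and had a fitted value of 3.96 (limma-voom adjusted p = 0.35), a size that is uncertain at so low a level. Its mean was 0.576 CPM in sham and 3.47 CPM in pMCAO. Ddit4 was at 0.62 and Fkbp5 at 1.42. Of 10 genes of the fasting response through PPAR alpha 2 were higher and 0 lower on the group alone (median 0.42). With the sets 3 were higher and 0 lower. Angptl4, an inhibitor of lipoprotein lipase, was at 1.38 (limma-voom adjusted p = 0.338, and 0.121 with the sets). Pdk4, which holds pyruvate back from oxidation, was at 1.06.

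**Figure D5:**
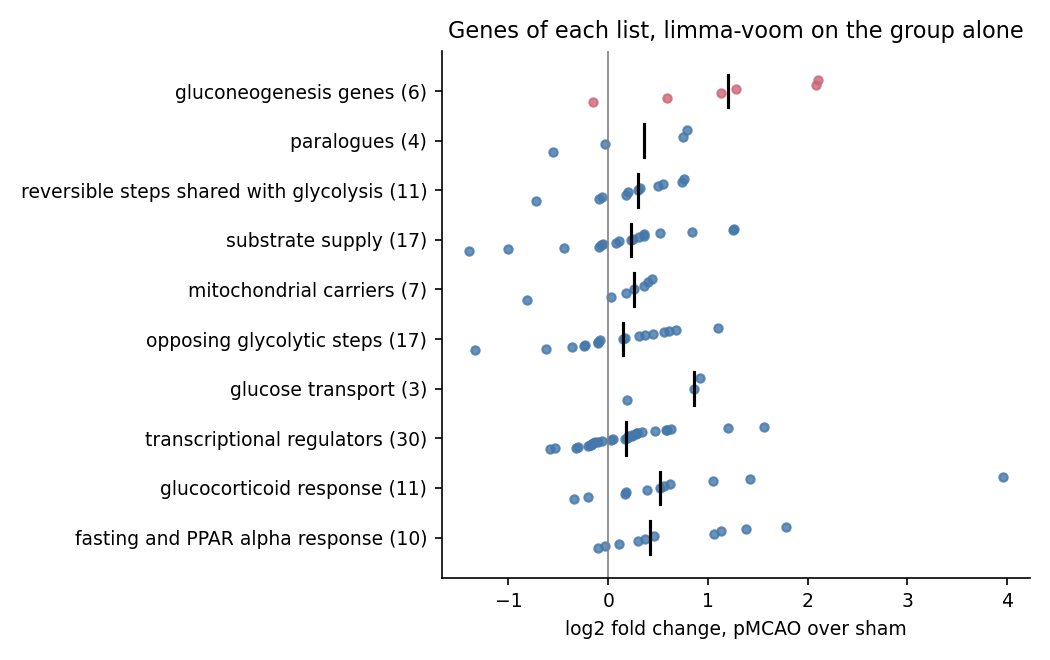
Log2 fold change (pMCAO over sham, limma-voom on the group alone) of the 6 gluconeogenesis genes and of the measured genes of 9 related lists, each point a gene and each bar the list's median, with the number of genes in brackets. Of the 6 genes 4 lie above 1, and most points of the other lists lie between -1 and 1.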

How the data were processed

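RNA was measured in sorted small intestinal epithelial cells of 7 sham and 5 pMCAO mice. Per the labels and the study's methods, the authors removed ribosomal RNA by cleavage, aligned paired-end reads to GRCm38 with STAR and assigned them to genes with featureCounts. The strand setting is not given in the sources used here. The deposited count columns hold whole-number counts per gene, and the deposited CPM columns are the same counts divided by each sample's total over the table (190260 of 190260 values within a tolerance of 0.001). Further columns hold the authors' log2 fold change, average expression, p-value and FDR, and entered no fit here, though they bear on the library sets described below.

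Counts were filtered with filterByExpr (minimum count 10), which kept 14462 of 15855 genes, scaled with TMM and tested with limma-voom, the study's tool, on the group alone, without the study's correction for collection day (limma 3.58.1, edgeR 4.0.16, R 4.3.3). Standard errors are those of the moderated fit, and CPM and log2 CPM (prior count 2) of genes are TMM-scaled. Exact permutation tests were two-sided, with a smallest p of 0.00126 over all samples and 0.0139 within library sets. The 4 library sets come from the library numbers in the sample titles, at split points that an earlier analysis of these data had matched to the authors' deposited fold changes. The labels do not give the collection day, and whether the sets are days is not known. Sham replicate 7 was alone in its set and carried no information on the group in that fit.

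The 6 genes and the gene lists were chosen with earlier results of these data known. Genes named were the 6, up to 3 per pathway list by smallest unadjusted p, and Gapdh for its value with the sets. Also named were the 3 most alike in pattern to each of the 6, and markers where a list is described. Values of 1 gene so named are not reported here. Promoters came from RefSeq (GRCm38.p6, windows found for all 6), and coordinates and exon lengths from GENCODE M21, which may differ from the annotation the authors used. Alternatives were edgeR, DESeq2 (1.42.0, missing adjusted p-values left missing), limma-trend, sample quality weights, other scalings, no filter, covariates or blocks from library and replicate numbers, leaving out each library or the first set, and prior counts of 0.5 and 5. The scale relative to villus markers and the ACGTCA motif were added after the data were seen. The fits were tested on simulated counts.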

Additional observations from a re-analysis of the deposited data

Results flagged for a closer look

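Within the pMCAO group, Pck2 in replicate 1 stood far below the rest, at -1.17 log2 CPM from 4 counts against 1.80 ± 0.20 in the other samples (SD, n = 4). In the same library the log2 ratio of G6pc to the hexokinases was 1.04, far above the -1.62 ± 0.41 of the others (SD, n = 4). Among sham samples the log2 ratio of Pck1 to the pyruvate kinases was 0.30 in replicate 2, against -0.41 ± 0.11 in the others (SD, n = 6). These were the 3 isolated values found by Dixon's test in 20 groups of values, where chance gives about 1. All 3 values come from libraries 58 to 61.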

How the results depend on the processing

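G6pc, Slc37a4, Fbp1 and Pck1 kept a positive log2 fold change under every alternative run, and what changed was whether they passed the call rule. Of all genes tested, 0 were called on the group alone, 68 by DESeq2, 1 by limma-trend, 18 with sample quality weights, 3 with library totals alone, 47 with the library-set block, 16 with early against later libraries as a covariate, 156 with the library number as a covariate, 21 by edgeR and 115 by DESeq2 with the library-set block. Of the 6 genes these settings called 4 (DESeq2), 1 (library totals), 2 (library-set block), 2 (early against later), 3 (library number), 1 (edgeR with the sets) and 2 (DESeq2 with the sets). Without the set of libraries 58 to 61 no gene was called, and the fold changes of G6pc, Slc37a4, Fbp1 and Pck1 were 1.58, 0.97, 1.63 and 1.21. The causes were not tested.

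Fold changes that newly passed were, by DESeq2, G6pc 2.00, Slc37a4 1.35, Fbp1 2.15 and Pck1 1.31, with the library-set block Fbp1 2.16 and Pck1 1.28, with early against later libraries G6pc 2.03 and Pck1 1.32, with the library number G6pc 1.88, Fbp1 2.53 and Pck1 1.25, by edgeR with the sets Pck1 1.24, by DESeq2 with the sets Fbp1 2.20 and Pck1 1.23, and with library totals Pck1 1.51. The sign of Pck2 turned under edgeR (-0.22), DESeq2 (-0.24), edgeR (-0.07) and DESeq2 (-0.10) with the sets, and relative to villus markers (-0.23). That of Pcx turned with library totals (0.05) and without libraries 58 to 61 (0.14). None of these turned values was called.

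Same-numbered sham and pMCAO samples deviated together in no regular way (r of 0.398, -0.239, -0.163, 0.163 and 0.0823 for numbers 1 to 5), so the number does not pair them. A replicate block called 243 genes and 4 of the 6 (G6pc 1.77, Slc37a4 1.27, Fbp1 3.02, Pck1 1.21), and gave Pck2 -0.01.

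Leaving out each library in turn gave 0 to 17 called genes on the group alone (17 without pMCAO replicate 3, 8 without pMCAO replicate 1 and 5 without sham replicate 7) and 4 to 86 with the sets (4 without sham replicate 6, 6 without pMCAO replicate 1 and 86 without pMCAO replicate 3). Of the 6 genes it gave 0 on the group alone and 0 to 3 with the sets. Fold changes ran from 1.81 to 2.34 for G6pc (1.18 to 2.25 with the sets), 0.91 to 1.34 for Slc37a4 (0.63 to 1.30), 1.83 to 2.45 for Fbp1 (2.00 to 2.32), 1.13 to 1.48 for Pck1 (1.02 to 1.55), -0.01 to 0.90 for Pck2 (0.02 to 1.11) and -0.42 to 0.04 for Pcx (-0.46 to -0.10). The Pck2 value turned without sham replicate 6 and the Pcx value without sham replicate 1.

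Depth limits Fbp1 and Pck2 most, since sham samples held as few as 1 count of either, and with 5 pMCAO samples, 1 of them the only pMCAO sample of its set, calls move with single libraries.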

Other observations

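The genes whose log2 CPM most resembled each of the 6 were found over 11 samples after the mean of each library set was subtracted. These correlations still hold the group difference and share the same libraries, and are a description only. G6pc was most like Rcsd1, Gskip and Dock11 (Pearson's r of 0.96 for each). Slc37a4 was most like Gm8979 (0.97), Slc25a39 (0.96) and Pak6 (0.95), and Fbp1 like Eif4ebp3 (0.97), Nbea (0.96) and Nap1l4 (0.94). Pck1 was most like Errfi1 (0.97), which encodes an inhibitor of the EGF receptor, the translation elongation factor gene Eef1a1 (0.97) and Phyh (0.96). Pck2 was most like Rbfa (0.97), Dlg2 (0.97) and Cbx2 (0.96), and Pcx like mt-Tl2 (0.94), Ncor1 (0.93) and Dennd6b (0.93). None of the 18 genes was called on the group alone or with the library sets.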
